A study of Homo sapiens with 66 samples.

Results

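The genes described here are the replication-dependent histone genes, in 2 multiple myeloma cell lines treated with inhibitors of prolyl-tRNA synthetase (ProRS), the enzyme that loads proline onto its tRNA. Members were all protein-coding genes with symbols of the H1-1 to H1-6, H2AC, H2BC, H3C or H4C series that had at least 10 counts in at least 3 libraries. This rule found 19 of the 20167 genes in the count table. The group was selected on measured values: it was chosen because H2BC11 rose in AMO1 cells after 6 h of NCP26, so the contrast of NCP26 with DMSO at 6 h in AMO1 cells is given as a description with no test. Of the 70 such histone genes in the GENCODE v44 annotation, 33 had a row in the table, 14 of these were under the minimum, and the other 37 were not analysed here. H2BC26 was just inside the minimum, with 10 counts in 3 libraries, and H1-3 reached it in 5 libraries. H4C3, with 2 libraries, and H2AC20 and H4C16, with 1 each, were just outside. H3C14 and H3C15 carried identical counts in all 66 libraries and were treated as 1, which leaves 18 members with distinct counts. Of these 18, 11 met the minimum in the 12 DMSO libraries alone, and 7 (H1-3, H1-4, H2AC25, H2BC18, H2BC26, H3C14 and H4C11) met it only with treated libraries included.

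AMO1 cells (labelled AMO-1 WT) and L363-CFZr cells (labelled CFZr L363), a subline of L363 cells resistant to the proteasome inhibitor carfilzomib (CFZ), were treated for 6 h or 24 h with DMSO, NCP26, NCP22, halofuginone (HFG) or halofuginol, and AMO1 cells also with CFZ. The 4 ProRS inhibitors were used at 1 µM. HFG and halofuginol are analogues derived from febrifugine, and NCP26 and NCP22 are a pair of related compounds that differ in a ring, piperidinyl in NCP26 and cyclohexyl in NCP22. Each of the 22 groups had 3 libraries, which gave 36 libraries of AMO1 cells and 30 of L363-CFZr cells. Libraries of untreated parental L363 cells are not part of the samples used here, so the cell line and its resistance cannot be told apart.

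Replication-dependent histone genes supply the core histones H2A, H2B, H3 and H4 and the linker histone H1 that package newly copied DNA, and cells make most of their mRNA in S phase. Their mRNAs are unusual in ending in a stem-loop instead of a poly(A) tail. Stem-loop binding protein (SLBP) holds this end, the U7 small nuclear ribonucleoprotein and a cleavage complex form it, and the mRNA is degraded quickly when replication stops. A minor share of transcripts of some of these genes ends further downstream and is polyadenylated. The libraries were selected for poly(A) RNA, so the counts are of polyadenylated histone mRNA, and the counts per gene do not separate transcripts that end at the stem-loop from longer ones.

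The sequence that defines the group is shown because each annotated end of a member was read against it. A stem-loop of 16 bases, with a stem of 6 bases and a loop of 4, was found in GENCODE v44 transcripts of 18 of the 19 genes, with H2AC11 the exception. Capitals mark the stem and lower case the loop.
H1-2, H2AC6, H3C4 and 9 other members: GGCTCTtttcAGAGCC
H2BC11, H2BC12, H2BC4 and H2BC5: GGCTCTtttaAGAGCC
H4C8 and H4C11: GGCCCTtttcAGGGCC
Members differed in what is annotated past this stem-loop. At least 1 transcript of H2AC25 ran on for 1110 bases after it, of H2AC6 for 1128, of H4C8 for 1655, of H2BC21 for 1729 and of H2BC26 for 4551. In the other members with a stem-loop, annotated transcripts that held it ended 4 to 6 bases after it. H2BC11, H2BC4, H2BC5, H2BC15 and H2BC18 had annotated transcripts without a stem-loop beside 1 that ended at it.

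The 250 bases before the RefSeq start (GRCh38.p14) of 4 members that carry the results are shown to give their context. H2BC11 lies on the minus strand at chr6:27125897-27132795 and H2BC12 at chr6:27146361-27146855, also on the minus strand. H2AC6 lies on the plus strand at chr6:26124145-26139116 and H4C8 on the minus strand at chr6:26277609-26285638. The windows printed are chr6:27132796-27133045 for H2BC11, chr6:27146859-27147108 for H2BC12, chr6:26123922-26124171 for H2AC6 and chr6:26285535-26285784 for H4C8, each read 5′ to 3′ on the strand of its gene. Gene spans are from GENCODE v44 and windows from RefSeq starts, which differ, so part of the H4C8 window and the last bases of the H2AC6 window lie inside the GENCODE span. Capitals mark the octamer ATTTGCAT, the CCAAT box and the TATAAA box on either strand.
H2BC11: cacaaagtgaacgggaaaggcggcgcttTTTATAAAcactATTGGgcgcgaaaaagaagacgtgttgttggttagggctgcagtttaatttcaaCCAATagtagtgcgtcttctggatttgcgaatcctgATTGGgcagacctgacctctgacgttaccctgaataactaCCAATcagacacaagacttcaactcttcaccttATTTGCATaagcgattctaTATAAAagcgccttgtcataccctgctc
H2BC12: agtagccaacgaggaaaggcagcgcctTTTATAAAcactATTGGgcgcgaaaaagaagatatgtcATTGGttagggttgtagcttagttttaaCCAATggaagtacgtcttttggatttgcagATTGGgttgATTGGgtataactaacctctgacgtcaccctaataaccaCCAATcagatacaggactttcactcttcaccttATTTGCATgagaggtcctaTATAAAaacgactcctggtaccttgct
H2AC6: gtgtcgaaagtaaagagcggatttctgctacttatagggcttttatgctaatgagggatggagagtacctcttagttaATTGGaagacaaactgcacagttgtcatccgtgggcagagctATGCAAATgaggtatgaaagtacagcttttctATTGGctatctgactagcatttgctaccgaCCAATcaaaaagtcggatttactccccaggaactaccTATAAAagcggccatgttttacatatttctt
H4C8: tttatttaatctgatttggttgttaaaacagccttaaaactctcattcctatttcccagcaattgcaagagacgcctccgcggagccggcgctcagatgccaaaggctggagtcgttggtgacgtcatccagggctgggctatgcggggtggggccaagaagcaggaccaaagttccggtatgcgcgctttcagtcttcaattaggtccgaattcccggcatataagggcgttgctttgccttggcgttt
The octamer was in the windows of 8 of the 19 genes (42.1%), compared to 1.63% of all 35116 RefSeq promoter windows of the same length. CCAAT was in 17 (89.5%) compared to 32% of all windows, and TATAAA in 12 (63.2%) compared to 10.7%. H2BC11 and H2BC12 each held 1 octamer and 3 TATAAA boxes, with 4 CCAAT boxes in H2BC11 and 6 in H2BC12, counting both strands, on which TTTATAAA is read in both directions. H2AC6 held 1 octamer, 3 CCAAT boxes and 1 TATAAA box. H4C8 held 0 of the 3 motifs. H2BC11 and H2AC11 start 248 bases apart in opposite directions, as do H2BC4 and H2AC6, at 219 bases, and H2AC25 and H2BC26 on chromosome 1, at 230 bases. Windows of such a pair overlap, so 1 motif can count for both genes. H3C14 and H3C15 are counted separately among the 19.

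Libraries of AMO1 cells held between 1666325 and 5761682 counts, and those of L363-CFZr cells between 2487872 and 6596543. Of 9 plasma cell markers, 9 were at or above 1 CPM (counts scaled to a common library size, with TMM factors) in both lines, with a summed level of 2970 to 5970 CPM in AMO1 cells and 2480 to 3950 CPM in L363-CFZr cells. Summed B cell, T cell, myeloid, erythroid and stromal markers reached at most 10.1 CPM in any library. Log2 CPM of replicates of a group correlated at 0.938 to 0.992 in 66 pairs. The second library of CFZ at 24 h in AMO1 cells and the second of DMSO at 24 h in L363-CFZr cells stood apart from their replicates, with best correlations of 0.943 and 0.94 against 0.977 and 0.987 between the other 2. Sample numbers run in 3 sets of 22 libraries. The sets do not line up with the groups: in AMO1 cells the 24 h DMSO libraries are in another set than the ProRS inhibitors of that time, and in L363-CFZr cells HFG and halofuginol at 6 h are in another set than DMSO. All 6 h libraries of AMO1 cells share 1 set, as do all 24 h libraries of L363-CFZr cells, and each comparison of HFG with halofuginol lies within 1 set. The labels do not say whether replicates were separate cultures, so p-values measure the spread between libraries, which may be technical. Because permuting 3 libraries against 3 exactly allows no p under 0.1 for one gene, the tests below are edgeR quasi-likelihood fits over all genes with Benjamini-Hochberg adjustment. In tested comparisons, counts of genes as higher or lower are of those called at an adjusted p under 0.05.

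The level of H2BC11, which encodes an H2B of the large chromosome 6 cluster, is given in all 22 groups, and it was highest in AMO1 cells with NCP26 or HFG. In AMO1 cells at 6 h it was 8.27, 9.10 and 12.4 CPM with DMSO, 146, 140 and 146 CPM with NCP26, and 141, 132 and 143 CPM with HFG. The NCP26 and HFG libraries overlapped each other and lay far above all others. It was 13.2, 17.1 and 16.7 CPM with NCP22, 15.4, 10.96 and 12.6 CPM with halofuginol, and 15.02, 14.9 and 17.3 CPM with CFZ. These 3 groups overlapped one another, and halofuginol overlapped DMSO. At 24 h the level was 4.77, 4.25 and 6.01 CPM with DMSO, 11.6, 15.98 and 11.2 CPM with NCP26, and 20.8, 27.7 and 21.9 CPM with HFG. Libraries of both compounds were again above the rest, with the HFG libraries above those of NCP26. It was 3.58, 4.70 and 4.12 CPM with NCP22, 6.18, 6.09 and 5.74 CPM with halofuginol, and 4.55, 3.62 and 2.72 CPM with CFZ.

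In L363-CFZr cells H2BC11 stayed in a narrow range. At 6 h it was 6.25, 3.41 and 3.87 CPM with DMSO, 6.29, 5.84 and 4.98 CPM with NCP26, and 4.62, 5.28 and 5.99 CPM with HFG. NCP22 gave 4.48, 5.01 and 4.50 CPM and halofuginol 4.57, 4.59 and 5.37 CPM. All 5 groups overlapped. At 24 h the 15 libraries lay between 1.03 and 3.43 CPM, and the gene was under the filter on low counts in each comparison with DMSO. As counts come from bulk samples, fewer expressing cells and less RNA per cell cannot be told apart.

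**Figure D1:**
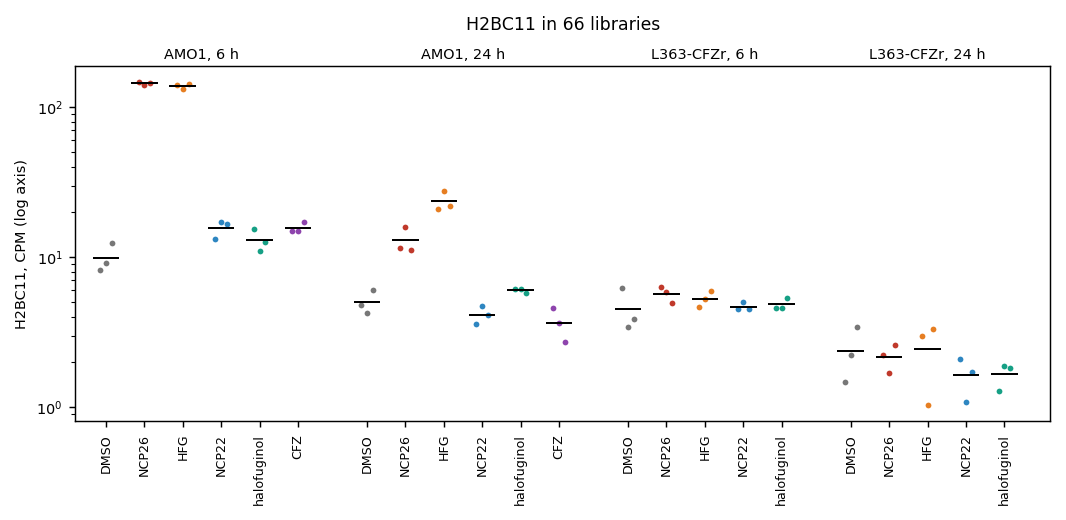
H2BC11 level in each of the 66 libraries, in CPM on a log axis, by treatment and time in AMO1 cells and L363-CFZr cells; points are libraries and short lines group means. NCP26 and HFG libraries of AMO1 cells at 6 h sit between 132 and 146 CPM, and the L363-CFZr libraries between 1.03 and 6.29 CPM.

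The contrast that chose the group, NCP26 against DMSO at 6 h in AMO1 cells, is described first. Of the 18 members, 15 passed the filter on low counts, and all 15 were higher with NCP26, with a median log2 difference of 2.44 and a range of 0.92 to 3.87. Of these 15, 6 would have passed the filter on the DMSO libraries alone, with a median of 1.655. The others passed only through the NCP26 libraries, so the 15 cannot be set against all genes. Across all genes 18.1% were called higher in this contrast. H2BC11 had a log2 difference of 3.87 ± 0.14 (SE, n = 3 each). It was followed by H1-4 with 3.81 ± 0.61, H1-3 with 3.19 ± 0.52, H2AC6 with 2.78 ± 0.13 and H2AC11 with 2.72 ± 0.25. H1-4, H1-3 and H2AC11 passed only through the NCP26 libraries, and H1-4 and H1-3 each had 3, 1 and 1 counts with DMSO. Against NCP22, which shares these NCP26 libraries, 15 of 15 were higher, with a median of 2.23 and 12.6% of all genes called higher. Of these 15, 9 would have passed the filter on the NCP22 libraries alone, with a median of 1.69.

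The comparison of HFG with halofuginol at 6 h in AMO1 cells shares no library with the contrast that chose the group. Members of the H1, H2A, H2B and H4 classes were higher with HFG, and the H3 members tested passed the filter only through the HFG libraries. Of the 17 members tested, 7 would have passed the filter on the halofuginol libraries alone. Of these, 7 of 7 were called higher, with a median log2 difference of 1.64. Across all genes tested 25.6% were called higher and 26.1% lower, and the median was 0.012. The other 10 (H1-3, H1-4, H2AC11, H2AC25, H2BC15, H2BC18, H2BC26, H2BC4, H3C14 and H3C4) passed the filter only through the HFG libraries. They were also higher and are given as values, with no p. As a description, 11 of the 11 members that met the minimum by DMSO libraries alone were higher, with a median of 2.45. H2AC11, H2BC15, H2BC4 and H3C4 of these 11 passed the filter only through the HFG libraries. Without a filter 18 of 18 members were called higher. This is also a description, as 7 of the 18 are members only with treated libraries included and no share over all genes is given.

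Among the H2B genes, H2BC11 changed most, with a log2 difference of 3.45 ± 0.11, a 10.9-fold difference (n = 3 each, edgeR adjusted p = 6.8e-14). H2BC4, whose gene starts close to that of H2AC6, followed with 28.02, 26.2 and 21.1 CPM compared to 2.51, 3.82 and 0.993 CPM, a difference of 3.27 ± 0.27. H2BC12 was at 354, 365 and 357 CPM with HFG compared to 120, 116 and 125 CPM with halofuginol. Its libraries were tight within each group, and its difference of 1.60 ± 0.06 (adjusted p = 3.9e-13) was smaller. H2BC21 had the smallest difference of the 17, 0.76 ± 0.11, at 61.0, 84.4 and 75.8 CPM compared to 42.4, 48.95 and 42.04 CPM. H2BC5, H2BC15, H2BC18 and H2BC26 lay between 1.25 and 2.28.

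Of the H2A genes, H2AC6 was at 469, 469 and 461 CPM with HFG compared to 91.6, 74.4 and 71.8 CPM with halofuginol, a log2 difference of 2.58 ± 0.07 (adjusted p = 2.7e-14). H2AC11, which lies head to head with H2BC11, differed by 2.76 ± 0.24, and H2AC25 by 1.92 ± 0.33. The 3 head-to-head pairs had differences of 3.45 and 2.76 (H2BC11 and H2AC11), 3.27 and 2.58 (H2BC4 and H2AC6), and 1.92 and 2.00 (H2AC25 and H2BC26).

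H1-2, a linker histone gene, was at 387, 389 and 352 CPM with HFG compared to 128, 116 and 123 CPM with halofuginol (1.64 ± 0.06, adjusted p = 1e-12). The other linker genes rested on few reads. H1-4 had 12, 40 and 54 counts with HFG and 2, 1 and 2 with halofuginol, and H1-3 had 7, 22 and 32 counts compared to 1, 1 and 4. Their fitted differences of 3.99 ± 0.48 and 2.95 ± 0.53 depend on the prior count of the fit. H3C4, an H3 gene, was at 18.8, 19.2 and 19.7 CPM compared to 1.57, 2.04 and 3.97 CPM, a difference of 2.97 ± 0.25. H4C8, an H4 gene, was at 28.8, 37.4 and 32.1 CPM compared to 5.96, 5.86 and 6.62 CPM (2.44 ± 0.17, adjusted p = 3.2e-09). H4C11 did not pass the filter, with 4, 12 and 14 counts with HFG and 0 in the 3 halofuginol libraries.

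**Figure D2:**
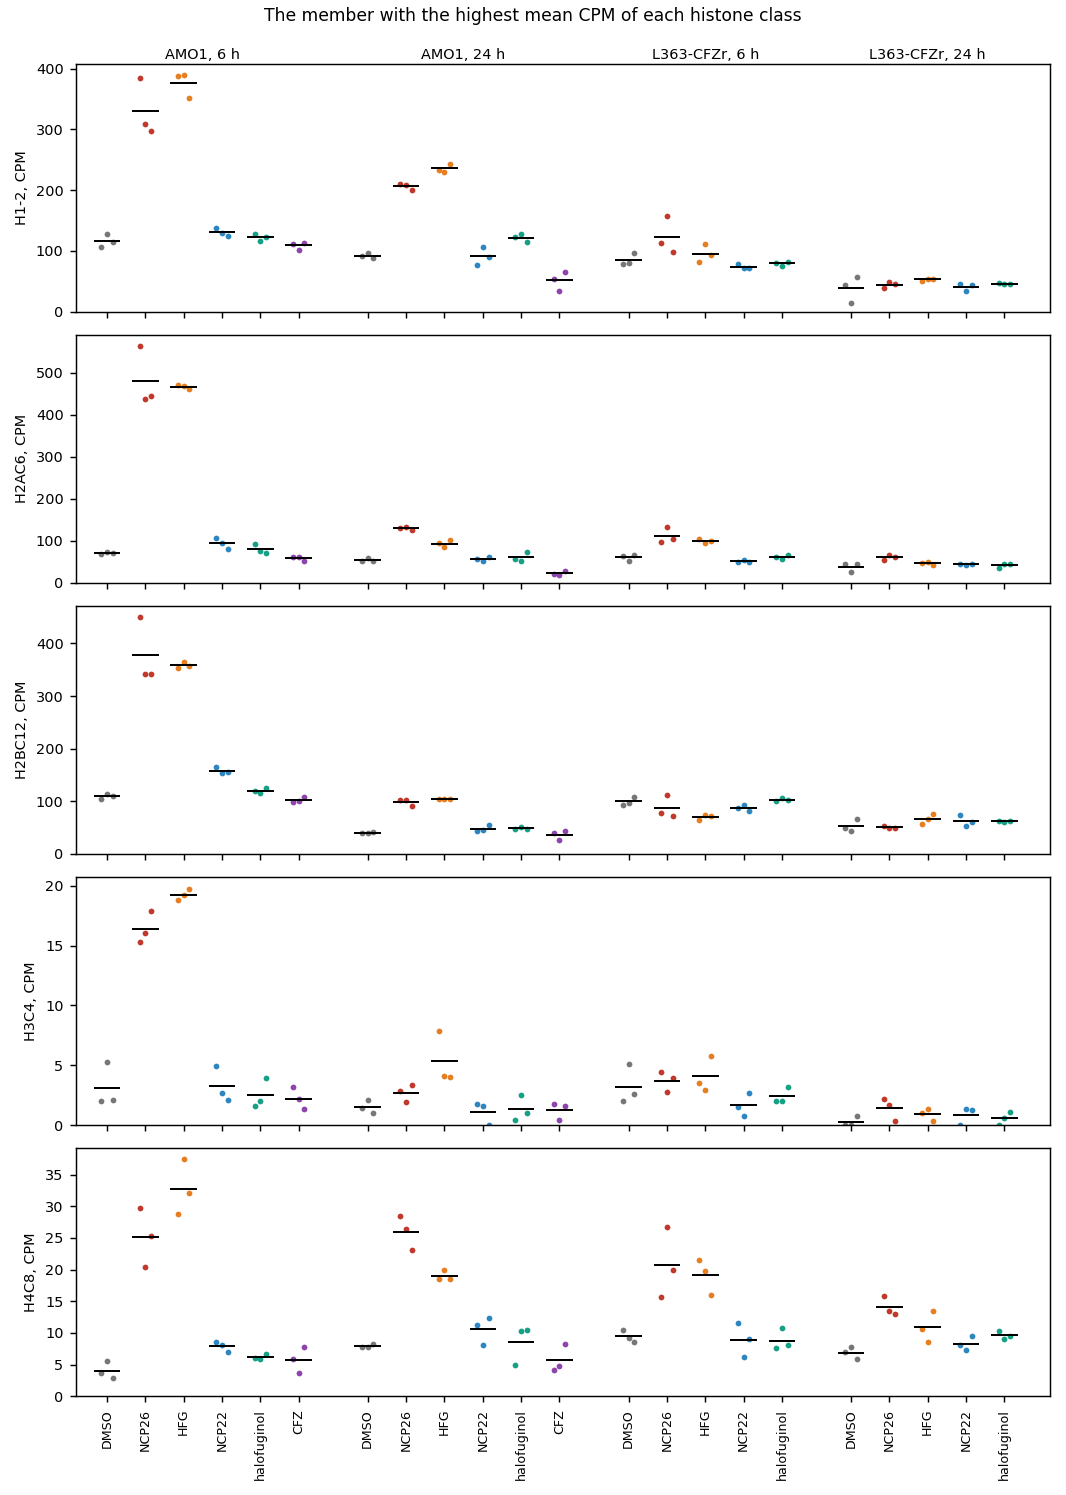
CPM per library of the member with the highest mean level in each histone class (H1-2, H2AC6, H2BC12, H3C4 and H4C8), by treatment and time in each cell line, on linear axes from 0; points are libraries. In AMO1 cells at 6 h the NCP26 and HFG libraries lie above the other libraries of that line and time, for H2AC6 between 438 and 562 CPM against at most 106 CPM.

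The 5 comparisons with DMSO at 6 h in AMO1 cells share the same 3 DMSO libraries, so they are given side by side. They are also the DMSO libraries of the contrast that chose the group, so H2BC11 gets no p in them. With HFG, 6 of the 6 members that would have passed the filter on these 3 DMSO libraries alone were higher. H2BC11 is among them and gets no p, so this count is a description. Their median log2 difference was 1.74, and 27.7% of all genes were called higher. As a description, 11 of the 11 members that met the minimum by DMSO libraries alone were higher, with a median of 2.66. Of these 11, H2AC11, H2BC15, H2BC4, H3C4 and H4C8 passed the filter only through the HFG libraries. H2BC11 differed by 3.84 ± 0.13, H1-4 by 3.79 ± 0.49, H4C8 by 3.06 ± 0.21, H3C14 by 2.90 ± 0.44 and H2AC11 by 2.84 ± 0.24. Of these 5, H2BC11 alone would have passed the filter on the 3 DMSO libraries alone, and the other values are descriptions. Without a filter 17 of 18 were called higher. This is a description, as 7 of the 18 are members only with treated libraries included and no share over all genes is given.

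With NCP22, 6 members would have passed the filter on the DMSO libraries alone, H2BC11 among them. Of the others, H2BC12 (0.55) and H2AC6 (0.43) were called higher, with 7.42% of all genes called higher. H2BC11, at 0.67, is not counted with them. H4C8 (0.97) was also under the threshold but passed the filter only through the NCP22 libraries, so it is given as a value. The value of H2BC11 is a description here, as its DMSO levels were used by the choice of the group. H4C8 and H2BC11 were not called with DESeq2, and H4C8 and H2AC6 were not called with a GC offset (0.90 and 0.31, edgeR adjusted p = 0.052 for H2AC6). Of these 4 members, 2 calls were left without the first DMSO library or any 1 of the NCP22 libraries. With halofuginol, edgeR called 0 of 8 members, 1 at an unadjusted p under 0.05, and DESeq2 called 0, while 3.62% of all genes were called in either direction. With CFZ, 1 of 8 members was lower (H2AC6, -0.30 ± 0.10, adjusted p = 0.031) and 1, H2BC11, was at 0.67 ± 0.21, a description for the same reason, with 14.1% of all genes called higher and 12.8% lower. DESeq2 called 0 of the 8. The call of H2AC6 was lost without the second DMSO library or the third CFZ library.

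**Figure D3:**
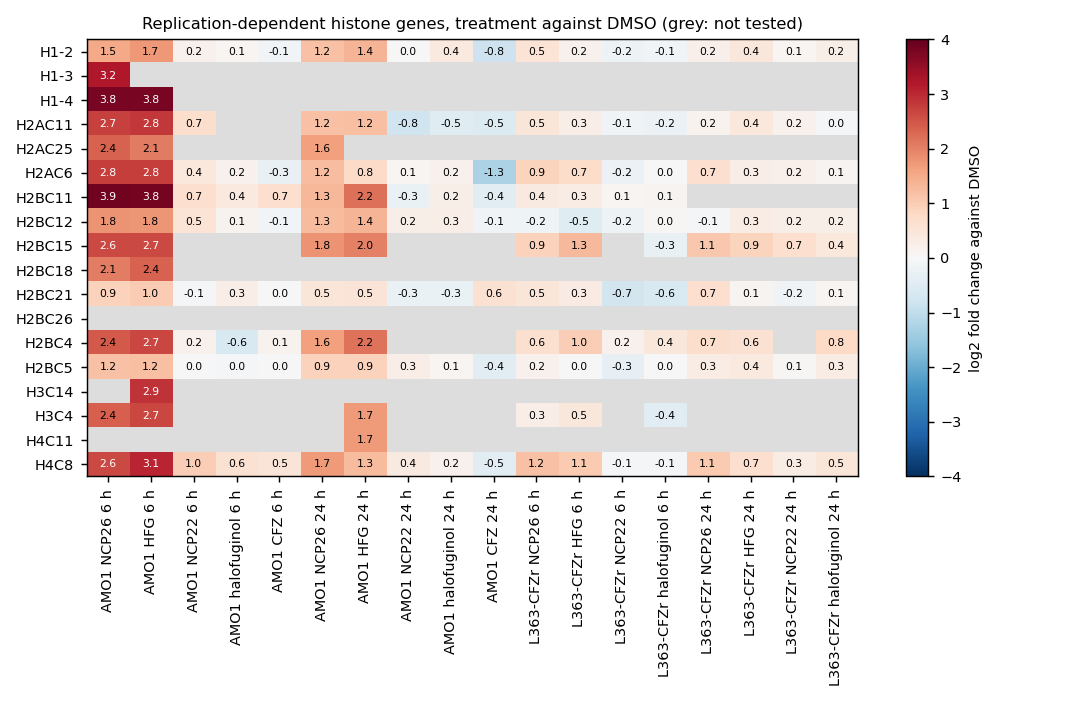
Log2 difference from DMSO of the same line and time (colour and printed value) for the 18 members in rows and the 18 treatments in columns; grey cells did not pass the filter on low counts. The columns of NCP26 and HFG in AMO1 cells hold the high values, from 0.92 to 3.87 at 6 h and from 0.49 to 2.20 at 24 h.

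At 24 h in AMO1 cells members were higher with HFG than with halofuginol and with NCP26 than with NCP22. Comparisons within each pair lie within 1 set of libraries. In HFG against halofuginol, 7 of the 7 members that would have passed the filter on the halofuginol libraries alone were higher, with a median log2 difference of 0.98 and 27.9% of all genes called higher and 28.7% lower. Without a filter 13 of 18 were called higher. This is a description, as 7 of the 18 are members only with treated libraries included and no share over all genes is given. H2BC11 differed by 1.99 ± 0.21 (adjusted p = 3.7e-07) and H2BC12 by 1.11 ± 0.09 (adjusted p = 7.4e-09). Another 5 members passed only through the HFG libraries and are given as values: H2BC4 at 2.62 ± 0.39, from 3, 3 and 6 counts with halofuginol, H3C4 at 1.80 ± 0.48, H2BC15 at 1.73 ± 0.35, H2AC11 at 1.69 ± 0.29 and H4C11 at 0.96 ± 0.34. H1-2 was at 233, 230 and 244 CPM compared to 123, 127 and 114 CPM, a difference of 0.98 ± 0.07. H2AC6, with a difference of 2.58 at 6 h, was at 94.0, 84.0 and 101 CPM compared to 56.5, 52.1 and 74.1 CPM at 24 h, a difference of 0.62 ± 0.12.

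In NCP26 against NCP22 at 24 h, 7 of the 7 members that would have passed on the NCP22 libraries alone were higher, with a median of 1.17 and 26.3% of all genes called higher and 25.7% lower. H2BC11 differed by 1.61 ± 0.26 (adjusted p = 0.00016), H4C8 by 1.37 ± 0.19 (adjusted p = 4.6e-05) and H2AC6 by 1.20 ± 0.08 (adjusted p = 7.5e-08). Of the 6 members that passed only through the NCP26 libraries, H2AC11 was at 13.5, 11.7 and 10.02 CPM compared to 4.48, 1.57 and 3.60 CPM, a difference of 2.00 ± 0.33. H2AC25 was at 1.34 ± 0.42, and the other 4 lay between 0.41 and 1.18. Without a filter 12 of 18 members were called higher. This is a description, as 7 of the 18 are members only with treated libraries included and no share over all genes is given.

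Against DMSO at 24 h the AMO1 libraries of the 4 ProRS inhibitors lie in another set than DMSO, and values with a term for the set are given beside these. In AMO1 cells that term rests on the CFZ group at 24 h, the one group that spans 2 sets and whose second library stood apart. With NCP26, 8 of the 8 members that would have passed on the DMSO libraries alone were higher (median 1.22, 29.8% of all genes called higher). Another 3, H2BC15, H2AC25 and H2BC4, passed only through the NCP26 libraries. With the set term 7 members were called. Without this term the 5 largest were H2BC15 with 1.79 ± 0.32, H4C8 with 1.7 ± 0.17, H2AC25 with 1.64 ± 0.42, H2BC4 with 1.64 ± 0.37 and H2BC11 with 1.33 ± 0.24. With it H2BC15 was at 0.75 (edgeR adjusted p of 0.65) and H4C8 at 1.05 (0.17), and neither was called. The value of H2AC25 turned to -1.84 with the set term, and this gene had 0, 0 and 2 counts in the CFZ libraries. With HFG, 7 of the 8 that would have passed on the DMSO libraries alone were called higher (median 1.24, 28.5% of all genes called higher). The exception was H2BC21 at 0.52 ± 0.22. Another 4, H2BC4, H2BC15, H3C4 and H4C11, passed only through the HFG libraries. With the set term 7 members were called. Without this term H2BC11 differed by 2.20 ± 0.22, H2BC4 by 2.17 ± 0.35, H2BC15 by 2.00 ± 0.33, H3C4 by 1.71 ± 0.42 and H4C11 by 1.71 ± 0.47. With it H2BC15 was at 0.96 (edgeR adjusted p of 0.51) and H3C4 at 2.51 (0.1), and neither was called. The 2 comparisons share the DMSO libraries. With the set term the members called were H1-2, H2AC11, H2AC6, H2BC11, H2BC12, H2BC4 and H2BC5 for NCP26, and H1-2, H2AC11, H2BC11, H2BC12, H2BC4, H2BC5 and H4C11 for HFG. The shares over all genes with the set term are not given here, so these counts are descriptions.

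With NCP22 at 24 h edgeR called 0 of 8 members, 1 at an unadjusted p under 0.05, and DESeq2 called 0, with 0.0% of all genes called. With halofuginol 1 of 8 was higher, H1-2 (0.39 ± 0.08, adjusted p = 0.034), with 0.0731% of all genes called higher. This call was lost with DESeq2, with the set term and without any 1 of the 3 DMSO libraries or the first or second halofuginol library.

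With CFZ at 24 h in AMO1 cells 2 of 8 members were called lower and 0 higher, with 14% of all genes called lower and a median over the 8 of -0.45. H2AC6 was at 21.4, 18.5 and 26.9 CPM compared to 50.6, 58.8 and 52.5 CPM with DMSO (-1.26 ± 0.16, adjusted p = 0.00086). H1-2 was at 54.3, 34.2 and 65.8 CPM compared to 91.0, 97.1 and 87.4 CPM (-0.82 ± 0.20, adjusted p = 0.018). The first CFZ library lies in the set of DMSO and the other 2 in another set. With a term for the set H2AC6 was at -1.33 and H1-2 at -0.75, and both were called. Without the second CFZ library, which stood apart, the differences were -1.17 and -0.61 and both were called. Without any 1 of the DMSO libraries the call of H1-2 was lost. That second CFZ library held 41 counts of H3C14 and 19 of H1-4, compared to 9 and 6, and 2 and 3, in its replicates.

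In L363-CFZr cells at 6 h H2BC11 was not called, and H2BC15, H4C8, H2BC21 and H2AC6 led the members in HFG against halofuginol. Against DMSO, H2BC21 was not called with NCP26 (0.50, edgeR adjusted p = 0.12) or HFG (0.34, edgeR adjusted p = 0.091). H2BC15 was not called with NCP26 against DMSO (0.93, edgeR adjusted p = 0.07). In HFG against halofuginol at 6 h, within 1 set, 10 members would have passed the filter on the halofuginol libraries alone. Of these, 5 were higher and 1 lower, with a median log2 difference of 0.53. Across all genes 23.1% were called higher and 24.2% lower. H2BC15 was at 9.46, 8.25 and 7.06 CPM compared to 2.68, 2.89 and 2.68 CPM (1.60 ± 0.26, adjusted p = 7e-06). H4C8 was at 21.6, 19.8 and 16.04 CPM compared to 7.57, 10.7 and 8.05 CPM (1.14 ± 0.17, adjusted p = 2.2e-06). H2BC21 differed by 0.96 ± 0.12 and H2AC6 by 0.74 ± 0.07 (adjusted p = 1e-07 and 4.9e-10), and these 4 did not overlap between the groups. H1-2 (0.28 ± 0.08) was also called higher. H3C4 (0.88 ± 0.34) passed the filter only through the HFG libraries and is given as a value. H2BC12 was lower, at 63.8, 74.6 and 72.5 CPM compared to 100, 107 and 103 CPM (-0.53 ± 0.07, adjusted p = 1.8e-07). H2BC11 differed by 0.18 ± 0.25, with a 95% interval of -0.33 to 0.70 (adjusted p = 0.58).

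In NCP26 against NCP22 at 6 h in L363-CFZr cells, 10 members would have passed the filter on the NCP22 libraries alone. Of these, 4 were higher, with a median of 0.67 and 9.96% of all genes called higher. H4C8 (1.22 ± 0.25, adjusted p = 0.0069), H2BC21 (1.21 ± 0.15, adjusted p = 0.00042), H2AC6 (1.12 ± 0.13, adjusted p = 0.00025) and H1-2 (0.74 ± 0.15, adjusted p = 0.0074) were called. The third NCP22 library lies in another set than the other 5 libraries. The call of H1-2 was lost without it (adjusted p of 0.054) and with a term for the set (0.70, adjusted p of 0.061). H2BC12 differed by 0.02 ± 0.15.

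Against DMSO at 6 h in L363-CFZr cells, 10 members would have passed the filter on the DMSO libraries alone. With NCP26, 3 of these were higher (H4C8 1.17 ± 0.22, H2AC6 0.90 ± 0.14 and H1-2 0.55 ± 0.16), with a median of 0.52. Across all genes 9.81% were called higher. Without the second NCP26 library 5 were called, a description, as the share over all genes in that fit is not given. The call of H1-2 was lost without any 1 of the DMSO libraries, without the first NCP26 library, with the set term (adjusted p of 0.078), with all groups of the line in 1 fit (0.071) and with a replicate block (0.53, adjusted p of 0.091). Of the 10 members that would have passed on the DMSO libraries alone, HFG gave 4 higher and 1 lower, with a median of 0.31. Across all genes 26.9% were called higher and 27.5% lower. The 4 were H2BC15 at 1.31 ± 0.27, H4C8 at 1.06 ± 0.18, H2BC4 at 0.98 ± 0.31 and H2AC6 at 0.74 ± 0.09, and H2BC12 was lower at -0.49 ± 0.09. HFG and DMSO lie in different sets, and with a term for the set only H2AC6 was called.

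Halofuginol and NCP22 gave few calls at 6 h. Of the 10 members that would have passed on the DMSO libraries alone, halofuginol gave 1 lower, H2BC21 (-0.62 ± 0.18), with 12.2% of all genes called lower. This call was lost with the set term and without the second DMSO or the first or second halofuginol library. With NCP22 edgeR called 0 of 9, 4 at an unadjusted p under 0.05, DESeq2 called 0, and 0.0% of all genes were called. Intervals for H2BC11 against DMSO at 6 h were -0.25 to 1.00 with NCP26, -0.32 to 0.90 with HFG, -0.59 to 0.72 with NCP22 and -0.48 to 0.70 with halofuginol.

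**Figure D4:**
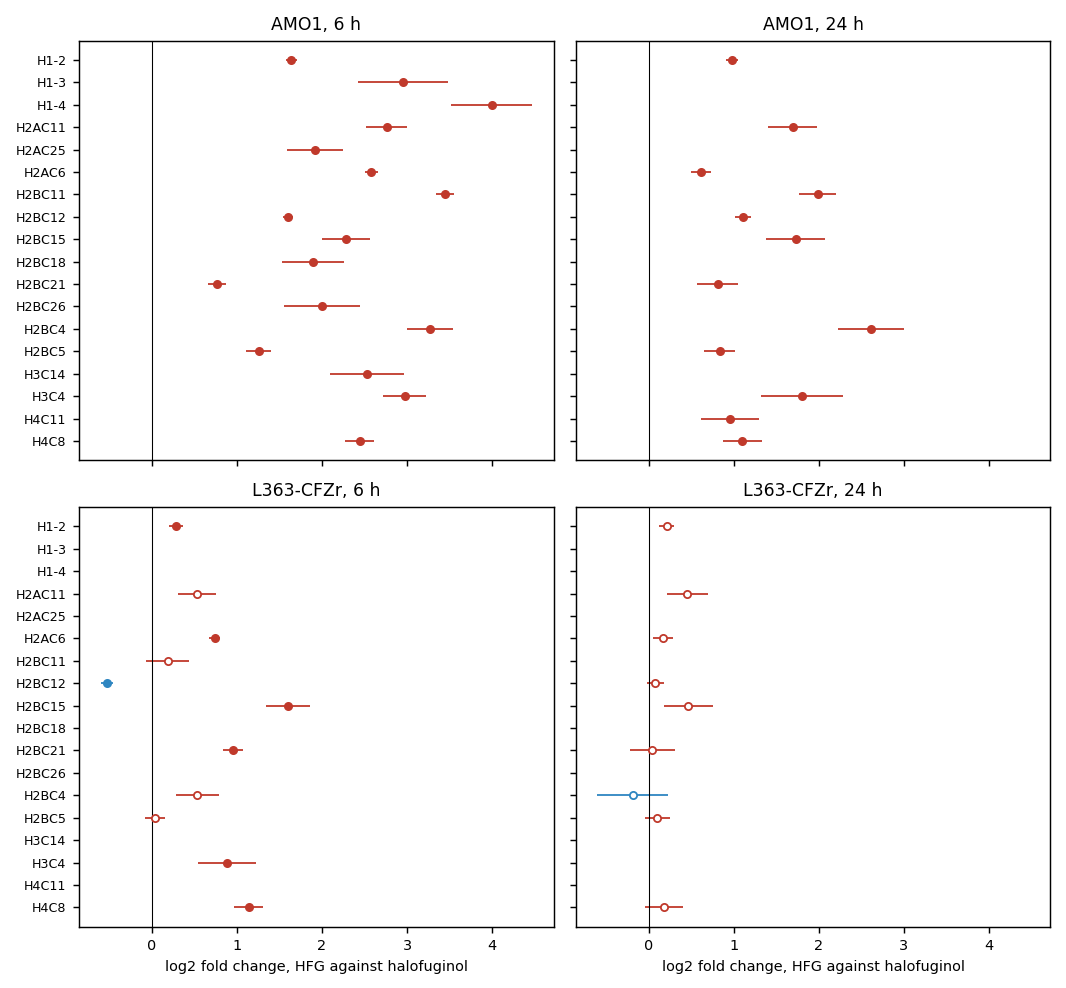
Log2 difference of HFG from halofuginol for each member tested, in 4 panels for cell line and time; points are estimates, bars are SE, and filled points have an edgeR adjusted p under 0.05, red for higher and blue for lower. In AMO1 cells 17 of 17 points at 6 h and 12 of 12 at 24 h are filled red, and in L363-CFZr cells 6 of 11 at 6 h are red and 1, H2BC12, is blue. In AMO1 cells 7 members at 6 h and 7 at 24 h would have passed the filter on the halofuginol libraries alone. Points of the other AMO1 members, and of H3C4 in L363-CFZr cells at 6 h, are shown as values.

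At 24 h in L363-CFZr cells few members differed. For NCP26 against NCP22, 8 members would have passed the filter on the NCP22 libraries alone, and 3 of these were higher. They were H2BC21 by 0.80 ± 0.20 (adjusted p = 0.0061), H4C8 by 0.75 ± 0.19 (adjusted p = 0.0078) and H2AC6 by 0.45 ± 0.10 (adjusted p = 0.004). Across all genes 16.2% were called higher. H4C8 was at 15.8, 13.4 and 13.04 CPM compared to 8.07, 7.31 and 9.58 CPM, and H2AC6 at 54.2, 65.98 and 60.9 CPM compared to 43.9, 43.3 and 45.4 CPM. The groups did not overlap for either. Between HFG and halofuginol edgeR called 0 of 9, 1 at an unadjusted p under 0.05, and DESeq2 called 0, while 21.9% of all genes were called in either direction.

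For NCP26 against DMSO at 24 h, 7 members would have passed the filter on the DMSO libraries alone. Of these, 1 was higher, H4C8 (1.05 ± 0.21, adjusted p = 0.025), with a median of 0.31 and 2.71% of all genes called higher. H2BC15 and H2BC4 passed only through the NCP26 libraries in this fit. Without the second DMSO library, which stood apart, 4 of 11 were called: H4C8 (1.14), H2BC15 (0.92), H2BC21 (0.61) and H2AC6 (0.46). Leaving out any other 1 of the 6 libraries gave 0 calls. The shares over all genes without a library are not given here, so these counts are descriptions. With HFG edgeR called 0 of 9, 2 at an unadjusted p under 0.05, and DESeq2 called 0, with 1.17% of all genes called in either direction. Without the second DMSO library H4C8 was called, at 0.77. NCP22 (0 of 8) and halofuginol (0 of 9) gave 0 calls by edgeR and by DESeq2, 0 at an unadjusted p under 0.05, and 0.0% of all genes were called in either.

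Differences between the 2 lines were tested at 24 h, and not at 6 h, where the AMO1 contrast had chosen the group. The NCP26 effect was lower in L363-CFZr cells for 1 of the 10 members tested that met the minimum by DMSO libraries alone. This was H2BC12 (-1.38 ± 0.20, adjusted p = 0.0024). The median over the 10 was -0.84, and 2.44% of all genes were called lower. Without the second DMSO library of L363-CFZr cells 6 of 14 were called lower. The HFG effect was lower for 2 of the 11 members that met the minimum by DMSO libraries alone, with a median of -0.80 and 8.82% of all genes called lower. These were H2BC11 (-2.18 ± 0.53) and H2BC12 (-1.07 ± 0.20). H3C14 was at -3.11 ± 0.69, given as a value, as it passed the filter only through the AMO1 HFG libraries, with 10, 8 and 10 counts. It did not pass the filter for HFG against DMSO at 24 h in either line. Without the second DMSO library of L363-CFZr cells 8 of 15 were called lower, H3C14 among them. The call of H2BC11 was lost without the third L363-CFZr DMSO library, at -1.78 with an adjusted p of 0.061. Shares over all genes without these libraries are not given here.

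Each paired analogue gives a reference inside 1 set of libraries in each line. With NCP22 in place of DMSO, the NCP26 effect was lower in L363-CFZr cells for 4 of 14 members: H2AC11 (-2.03), H2BC12 (-1.36), H1-2 (-1.05) and H2AC6 (-0.73). With halofuginol in place of DMSO, the HFG effect was lower for 9 of 14: H2BC4 (-2.79), H3C14 (-2.45), H2BC11 (-1.42), H2BC15 (-1.25), H2AC11 (-1.22), H2BC12 (-1.02), H4C8 (-0.91), H1-2 (-0.75) and H2BC5 (-0.72). H3C14 did not pass the filter for HFG against halofuginol at 24 h in either line. The shares of all genes called lower in these fits are not given here, so both counts are descriptions and cannot be set against all genes.

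The lines also differed before treatment. At 6 h with DMSO, 6 members would have passed the filter on the AMO1 libraries alone. Of these, 1 was higher in L363-CFZr cells than in AMO1 cells (H2BC5 0.70 ± 0.16). Another 3 were lower (H2BC11 -1.17 ± 0.29, H2BC21 -0.48 ± 0.18 and H1-2 -0.47 ± 0.10). H2BC21 overlapped between the lines, at 24.0, 38.9 and 20.6 CPM in L363-CFZr cells compared to 35.7, 35.7 and 40.8 CPM. DESeq2 called 2 members lower. Across all genes 28.9% were called higher and 31.3% lower. H2AC11 (1.47 ± 0.33) and H4C8 (1.19 ± 0.29) passed the filter only through the L363-CFZr libraries and are given as values. H2BC11 is counted here, but its AMO1 DMSO libraries are those used to choose the group. The lines lie in different sets. With a set term, in a fit of all groups, only H2AC11 of the 6 genes with values here was under the threshold, and it stays a value. H2BC11 was then at -0.63, H4C8 at 0.58 and H1-2 at -0.33, with adjusted p of 0.43, 0.47 and 0.51. H2AC25 and H2BC26, the head-to-head pair on chromosome 1, had 0 counts in all 30 L363-CFZr libraries, which allows up to 0.455 to 1.21 CPM per library (3 counts, for counting error only). H2AC25 had 21 counts in the 3 AMO1 DMSO libraries at 6 h, 2.30 CPM, at least 8.55-fold higher than the floor of 3 counts over the L363-CFZr DMSO group.

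Summed over the 18 members, the level in AMO1 cells at 6 h ran from 359 to 404 CPM with DMSO, from 1447 to 1802 CPM with NCP26 and from 1567 to 1632 CPM with HFG. With NCP22 it was 453 to 504 CPM, with halofuginol 404 to 438 CPM and with CFZ 346 to 371 CPM. At 24 h the sums were lower in each group, 246 to 259 CPM with DMSO, 546 to 592 CPM with NCP26, 580 to 598 CPM with HFG and 163 to 198 CPM with CFZ. In L363-CFZr cells at 6 h they ran from 320 to 346 CPM with DMSO, 385 to 540 CPM with NCP26 and 368 to 396 CPM with HFG. The second NCP26 library gave the 540 CPM. Times differ in how samples were kept before extraction, frozen at 6 h and on ice at 24 h, so time and storage cannot be told apart.

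Genes of the histone mRNA pathway were read against the shares over all genes, 25.6% called higher and 26.1% lower. In HFG against halofuginol at 6 h in AMO1 cells, of 21 transcription and 3′ processing factors 5 were higher and 11 lower, with a median of -0.19. PCF11, a termination factor, was at 103, 102 and 104 CPM compared to 65.9, 67.8 and 55.0 CPM (0.74 ± 0.08). SNRPB, an Sm ring protein, was at -0.79 ± 0.08 and CLP1, a cleavage factor subunit, at -0.66 ± 0.19. Of 16 histone mRNA decay factors 6 were higher and 4 lower (median -0.02), among them the exonuclease XRN1 (0.91 ± 0.07), the kinase SMG1 (0.83 ± 0.07) and LSM3 of the LSM ring (-0.77 ± 0.09). Of 13 factors of canonical cleavage and polyadenylation 4 were higher and 6 lower (median -0.18), with CPSF6 at -0.57 ± 0.09, the poly(A) polymerase PAPOLG at 0.49 ± 0.13 and the poly(A) binding protein PABPN1 at -0.48 ± 0.06. Several of these counts are near the shares over all genes. Of 18 other RNAs without a poly(A) tail, 0 had a row in the table, so their level could not be set beside the members.

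Genes that act with histones in S phase were mostly lower where the members were higher. Of 21 histone chaperones and importers 3 were higher and 13 lower in the same comparison (median -0.28), with the centromeric chaperone HJURP at -1.07 ± 0.08, RBBP4 at -0.72 ± 0.07 and IPO4 at -0.69 ± 0.09. Of 36 S phase replication genes 1 was higher and 25 lower (median -0.53). PCNA, the sliding clamp, was at 126, 112 and 113 CPM compared to 280, 290 and 296 CPM (-1.29 ± 0.06), thymidine kinase TK1 at -1.15 ± 0.10 and the helicase subunit MCM5 at -1.01 ± 0.07. The part of this list in the result for the members was not tested. Among 8 genes listed as replacement and replication-independent histones, most of whose mRNAs are normally polyadenylated, 2 were higher and 5 lower (median -0.34). H3-3B, which encodes H3.3, was at 831, 804 and 806 CPM compared to 293, 313 and 309 CPM (1.44 ± 0.05), H1-10 was at 0.73 ± 0.05 and H2AX at -0.67 ± 0.10.

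At 24 h in AMO1 cells, HFG against halofuginol gave 0 of 36 S phase genes higher and 32 lower (median -1.04), led by CDT1 (-2.24 ± 0.09), TK1 (-2.04 ± 0.15) and RRM2 (-1.81 ± 0.09). Across all genes 27.9% were called higher and 28.7% lower in this comparison. NCP26 against NCP22 at 24 h gave 0 higher and 32 lower (median -1.03), with 26.3% of all genes called higher and 25.7% lower. Of the 21 chaperones 3 were higher and 13 lower with HFG, among them HJURP (-2.0 ± 0.11) and CHAF1B (-1.96 ± 0.22), a subunit of the chaperone that loads histones behind the fork. Of the 21 processing factors 4 were higher and 7 lower with HFG, near the shares over all genes. LSM10 of the U7 ring was at 1.18 ± 0.15 and the endonuclease CPSF3 at -1.02 ± 0.07. H3-3B was at 1.09 ± 0.06 and H2AX at -1.02 ± 0.12. In L363-CFZr cells at 6 h, HFG against halofuginol gave 2 of 36 S phase genes higher and 25 lower (median -0.37), with MCM6 at 0.76 ± 0.05, FEN1 at -0.72 ± 0.08 and TK1 at -0.70 ± 0.10. There 23.1% of all genes were called higher and 24.2% lower.

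Some members share sequence with other genes, so their values are less certain. In GENCODE v44 transcripts, 96.6% of the 31-mers (the read words kallisto matches) of H3C4, 92.5% of H4C11, 71.0% of H2BC12, 57.1% of H2BC18 and 99.2% of H3C14 also occur in another gene, for H2BC12 mostly in H2BC12L. For H2BC11 the share was 9.16%, for H2AC6 1.80%, for H4C8 1.08% and for H1-2 0.71%, and at most 15.6% in each of the remaining members.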

How the data were processed

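RNA-seq was measured in 66 libraries of 22 groups, 3 replicates each. Per the labels and the study's methods, the authors selected poly(A) RNA, prepared directional libraries and assigned reads with kallisto. What the authors deposited are counts in whole numbers for each gene, not normalized. The processing notes name hg19 and the methods GRCh38. The sources used here do not give the kallisto version, the annotation or how counts were rounded. Groups came from the cell line, treatment and time labels.

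Identifiers were matched to GENCODE v44 (19299 of 20167). Each comparison was fitted with edgeR 4.0.16 in R 4.3.3 on its own groups, with filterByExpr (minimum count 10, minimum total 15), TMM scaling and the quasi-likelihood F test, adjusted by Benjamini-Hochberg over all genes tested, with a threshold of 0.05. Line differences were interaction terms. SE is the absolute log2 difference divided by the root of F. Printed CPM values use TMM factors over all 66 libraries. Exceptions are the floors for 0 counts and the 2.30 CPM of H2AC25 set beside them, which use total counts without these factors. The fits were checked on simulated counts. Total counts ran from 1666325 to 6596543 per library. Intervals and floors cover counting error only where counts are 0.

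Named with values were H2BC11 in all groups, in each comparison the 5 members with the largest differences in each direction among those called without overlap, the member of each class with the highest mean CPM, and 3 called genes of each list. Other members named were chosen after their values were seen. The members and lists were chosen with earlier results of these data known. Alternatives tried were DESeq2 1.42.0 (size factors, Wald test), no filter, all groups of a line in 1 fit, a GC offset, a term for the set of libraries, a replicate block, the paired analogue in place of DMSO and leaving out each library.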

Additional observations from a re-analysis of the deposited data

Results flagged for a closer look

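A test of the difference between the lines at 24 h picked out 4 values, each the effect of a compound in L363-CFZr cells minus its effect in AMO1 cells (log2, edgeR interaction term). For NCP26 this was -1.38 for H2BC12 (adjusted p = 0.0024). For HFG it was -2.18 for H2BC11 (adjusted p = 0.014), -1.07 for H2BC12 (adjusted p = 0.0036) and -3.11 for H3C14. H3C14 passed the filter only through the AMO1 HFG libraries, so no p of this fit is given for it. H2BC11 was under the filter on low counts for HFG against DMSO at 24 h in L363-CFZr cells alone. Its call was lost without the third L363-CFZr DMSO library (-1.78, edgeR adjusted p = 0.061). In AMO1 cells the treated and DMSO libraries of these contrasts lie in different sets. For H3C14 the second L363-CFZr DMSO library, which stood apart, was at 3.37 CPM compared to 1.24 and 1.96 CPM in its replicates, and the value was -1.55 (adjusted p = 0.39) with a term for the set.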

How the results depend on the processing

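Of 90 named gene values under 1203 alternatives, 1119 kept their direction and side of the threshold, 75 lost the call, 3 gained one and 6 reversed. The reversed values were H2AC25 with NCP26 at 24 h in AMO1 cells (-1.84) and H2BC11 with NCP22 at 24 h (0.24) with a term for the set, and H2BC11 in L363-CFZr cells at 6 h when DMSO libraries were left out in turn, where it ran from -0.064 (without the second; -0.063 without the third) to 0.34 with NCP22 and from -0.033 (without the third; -0.020 without the second) to 0.38 with halofuginol. The causes were not tested. Shares of all genes called in the alternative fits below are not given here. Counts of members called in them are descriptions and cannot be set against all genes. Members called with the set term were 7 for NCP26 and 7 for HFG at 24 h, 1 for CFZ at 6 h and 0 for halofuginol at 24 h in AMO1 cells, 4 for NCP26 at 24 h, 1 for HFG at 6 h, 1 for HFG at 24 h and 0 for halofuginol at 6 h in L363-CFZr cells, and 3 between the DMSO groups. The DESeq2 Wald test called 0 for CFZ and 2 for NCP22 at 6 h and 0 for halofuginol at 24 h in AMO1 cells. With all groups of a line in 1 fit the calls were 1 for CFZ at 6 h, 5 for CFZ and 0 for halofuginol at 24 h in AMO1 cells, 4 for NCP26 at 24 h, 2 for HFG at 24 h and 0 for halofuginol at 6 h in L363-CFZr cells, and 5 and 6 for the line differences of NCP26 and HFG. No filter gave 1 for halofuginol at 6 h in AMO1 cells, and 5 for NCP26 and 1 for NCP22 at 6 h in L363-CFZr cells. The GC offset gave 1 for HFG against halofuginol at 24 h in L363-CFZr cells, where the call of H2BC12 with HFG at 6 h was lost (-0.17). NCP22 or halofuginol in place of DMSO gave 4 and 9 for the line differences. Leaving out 1 library gave 0 to 2 calls for CFZ at 6 h, 1 to 3 for CFZ at 24 h, 2 to 3 for NCP22 at 6 h and 0 to 1 for halofuginol at 24 h in AMO1 cells. In L363-CFZr cells it gave 2 to 5 for NCP26 at 6 h, 0 to 4 for NCP26 at 24 h, 0 to 1 for HFG at 24 h and 0 to 1 for halofuginol at 6 h, and 1 to 6 and 2 to 8 for the line differences of NCP26 and HFG.

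Replicates share a number only: in 0 of 29 comparisons did every same-numbered pair of libraries correlate over 0.1 (range -0.32 to 0.27). With a replicate block the calls were 1 for CFZ at 6 h and 0 for halofuginol at 24 h in AMO1 cells and 0 for NCP26 at 24 h in L363-CFZr cells, and counts elsewhere stayed within 1.5 times. Depth limits H1-3, H1-4, H2BC26, H3C14 and H4C11, with few counts per library.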
